A study of Mus musculus with 12 samples.

Results

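Transcripts of 10 heat shock chaperone genes were followed in RIP1Tag2 PanNETs, the insulin-producing pancreatic neuroendocrine tumors of mice in which the insulin promoter drives the SV40 T antigen in pancreatic beta cells. The 10 genes were taken by symbol, with earlier results of these data known: Hspa1a, Hspa1b, Hspa8, Hsph1, Hspb1, Dnajb1, Hsp90aa1, Hsp90ab1, Bag3 and Hspe1, out of 38924 gene identifiers in the count tables. RNA-seq had been performed on 12 tumors of C57Bl6 mice, with 4 tumors per group. Control tumors (replicates 1, 2, 3 and 4) came from mice given saline. Sunitinib-treated tumors (replicates 5, 6, 8 and 12) came from mice given the VEGF and PDGF receptor inhibitor alone. R+S-treated tumors (replicates 4, 5, 7 and 10) came from mice given sunitinib together with rapamycin, an inhibitor of mTOR. Per the sample labels, dosing started at 15.5 weeks of age and lasted 4 days in every group, and all tumors carried the RIP1Tag2 transgene. The design lets 3 questions be asked of these genes: whether they differed after anti-angiogenic treatment, whether they differed after the combination, and whether the combination differed from sunitinib alone.

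Heat shock chaperones bind unfolded or newly made proteins and either refold them or pass them on for degradation. HSP70 proteins take up short hydrophobic stretches, J-domain proteins such as the Dnajb1 product deliver clients and stimulate the ATPase of HSP70, and nucleotide exchange factors such as the products of Hsph1 and Bag3 let the client go. HSP90 acts later, on nearly folded clients that include kinases and steroid receptors, and small heat shock proteins such as the Hspb1 product hold aggregating proteins without using ATP. When unfolded proteins accumulate, the transcription factor HSF1 is set free and binds heat shock elements, inverted repeats of the letters GAA, in front of many of these genes. Beta cells make large amounts of secreted protein, most of which is folded in the endoplasmic reticulum by a separate set of chaperones. The name "cytosolic" holds for the products of 9 of the 10 genes. Hspe1 encodes HSP10, the lid of the mitochondrial chaperonin, and is described beside its partner Hspd1 (HSP60).

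The sequence in front of 3 members is shown because these members represent 3 arrangements of the heat shock element: 1 short repeat, 2 separate short repeats, and a single run of 4 units. The 250 bases upstream of the RefSeq transcription start were searched on both strands for GAANNTTC and TTCNNGAA (2 units each) and for their extensions by 1 unit (GAANNTTCNNGAA and TTCNNGAANNTTC), which contain and overlap the shorter motifs. RefSeq windows (GRCm38.p6) were matched by symbol for 7 of the 10 members, and Hspa8, Hsp90aa1 and Hsp90ab1 had no entry. Capitals mark the matched units.
Hspa1a, chr17:34972157-34972406, minus strand: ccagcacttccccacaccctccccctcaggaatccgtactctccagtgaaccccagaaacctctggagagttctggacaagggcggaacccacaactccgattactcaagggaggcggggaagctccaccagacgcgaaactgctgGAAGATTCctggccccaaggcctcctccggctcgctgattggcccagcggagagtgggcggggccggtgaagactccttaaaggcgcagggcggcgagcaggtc
Hspb1, chr5:135887669-135887918, plus strand: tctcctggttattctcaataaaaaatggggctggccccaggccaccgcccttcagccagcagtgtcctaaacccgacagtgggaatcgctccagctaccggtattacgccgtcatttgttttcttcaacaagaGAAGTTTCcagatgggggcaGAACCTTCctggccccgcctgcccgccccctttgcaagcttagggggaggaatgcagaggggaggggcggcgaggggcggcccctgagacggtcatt
Hspe1, chr1:55087898-55088147, plus strand: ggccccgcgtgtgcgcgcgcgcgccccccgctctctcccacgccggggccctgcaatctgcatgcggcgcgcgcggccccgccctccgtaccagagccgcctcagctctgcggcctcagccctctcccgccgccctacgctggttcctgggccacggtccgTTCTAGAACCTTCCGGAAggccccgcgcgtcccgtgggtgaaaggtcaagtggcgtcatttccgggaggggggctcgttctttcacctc

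A 2-unit motif was found in front of 5 of the 7 members (Hspa1a, Hspa1b, Hspb1, Hsph1 and Hspe1) and in 12.8% of 32851 windows of the same length over the RefSeq promoters. In Hspa1a it lay 104 to 97 bases before the start, and Hspa1b had the same motif at the same distance. The windows of these neighbouring genes were identical at 247 of 250 bases. In Hspb1 the matches began 117 and 97 bases before the start. Hspe1 was the only member with a 3-unit motif, found in 0.466% of all windows, and its 4 units in a row, 89 to 72 bases before the start, occurred in 7 of 32851 windows (0.0213%). One of the other windows belonged to Hspd1, which is transcribed away from Hspe1 on the opposite strand. RefSeq gives 2 starts of Hspd1: the window in front of one holds the same 4 units and the window in front of the other holds no match. No match was found in the windows of Dnajb1 and Bag3, which says only that these letters were not in these 250 bases.

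The reads counted on genes numbered 31872342 to 44215054 in a tumor (median 38526164). Levels are given as normalized CPM, read counts scaled by TMM to a common library size. Sunitinib-treated tumor 6 stood apart from the other libraries: the summed level of 12 beta cell markers was 9633 normalized CPM there and lay between 37241 and 83765 in the other 11 tumors, and Ins2 was at 784 against 10612 or more. The summed level of 16 acinar markers lay between 40.9 and 119 in control, between 2577 and 15001 in R+S-treated and between 10406 and 38502 in sunitinib-treated tumors, highest in tumor 6, and Amy2a5 and Ptf1a were listed at 0 in all control tumors. For 12 endothelial markers the range was 565 to 754 in control, 129 to 171 in R+S-treated and 57.1 to 101 in sunitinib-treated tumors. The part of these shifts in the levels below was not tested, and in such bulk tumors more cells of a type and more RNA per cell cannot be told apart. All control tumors share the label prefix S409, which no treated tumor has, and 3 of the 4 sunitinib-treated tumors share the prefix BX41. The prefixes never cross treatments, so prefix and treatment cannot be told apart.

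Per kb of exon, the order of the members in control tumors was led by Hsp90ab1 with 449 ± 22.4 normalized CPM per kb (mean ± SD, n = 4). Hspa8 followed with 110 ± 7.23, Hsp90aa1 with 65.1 ± 7.17 and Hspe1 with 22.8 ± 3.30, and none of these overlapped the next in order. Dnajb1 (14.0 ± 1.98) and Hsph1 (10.5 ± 1.39) overlapped each other and lay above Bag3 (7.56 ± 0.878). Hspa1b (1.38 ± 0.252), Hspb1 (1.38 ± 0.303) and Hspa1a (1.02 ± 0.232) closed the order and were not separated beyond their spread. This order rests on uniquely aligned reads only. The share of 50-base stretches that also occur in other genes' transcripts ran from 0% for Hsph1 and Bag3 to 66.3% for Hspa1a. The effect of this unequal loss on the order was not tested. Summed over the 10 members, the level was 2216 to 2295 normalized CPM in control, 2292 to 2733 in R+S-treated and 2711 to 3931 in sunitinib-treated tumors, so that the lowest sunitinib-treated tumor stood just below the highest R+S-treated one.

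**Figure D1:**
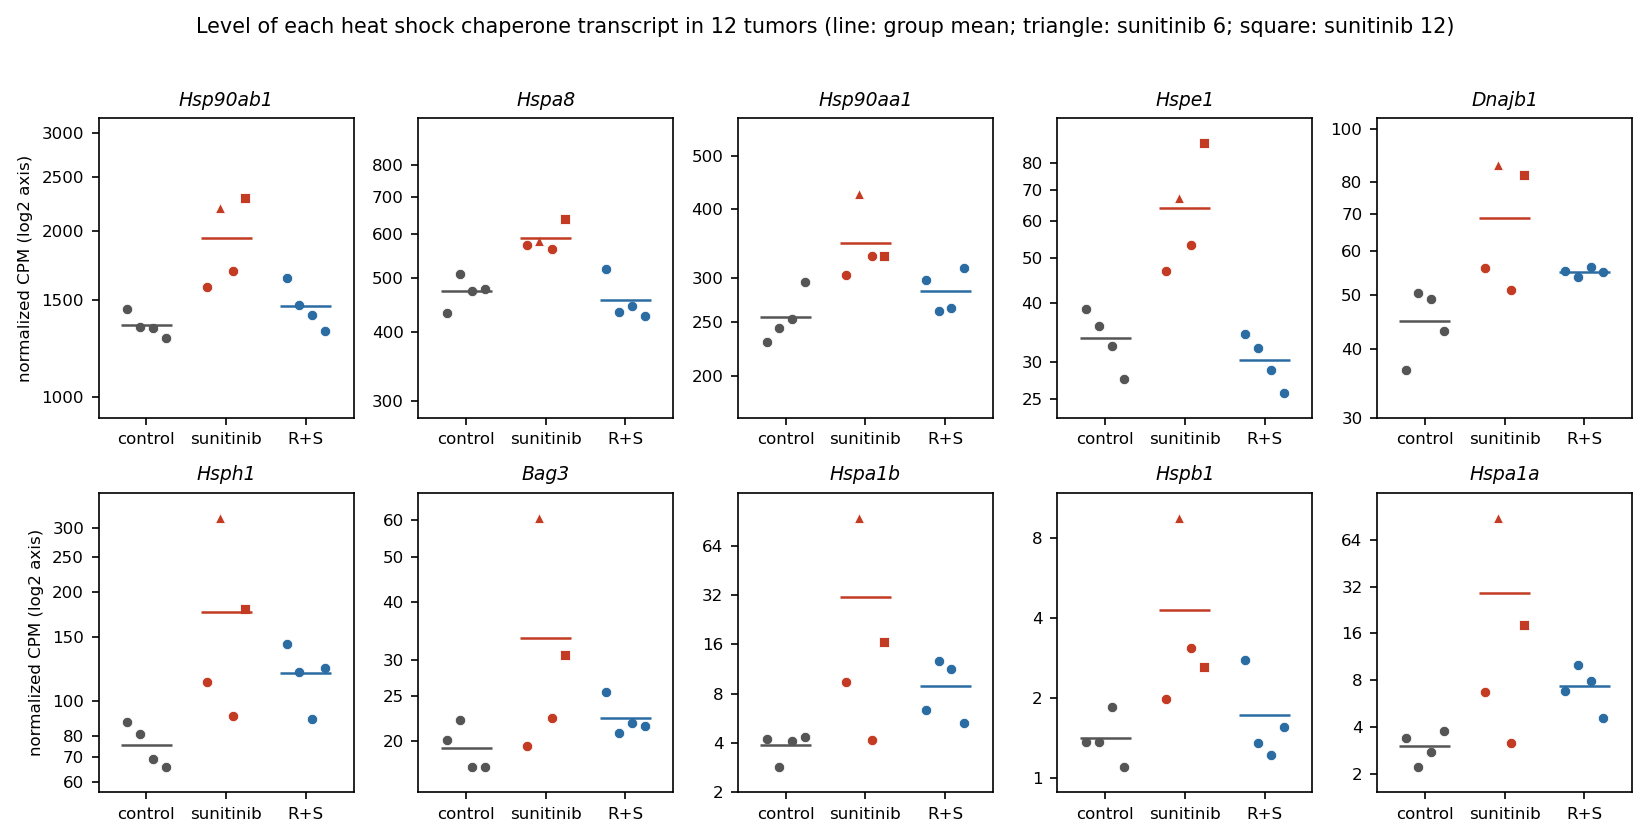
Normalized CPM (log2 axis, a scale per panel) of the 10 members in each of 12 tumors, ordered by level per kb in control tumors. Points are tumors, lines are group means, the triangle is sunitinib-treated tumor 6 and the square is sunitinib-treated tumor 12. The sunitinib-treated tumors spread widely for Hspa1a, Hspa1b, Hspb1, Hsph1 and Bag3 and little for Hspa8.

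Hspa1a and Hspa1b are intronless neighbours on chromosome 17 (GRCm38, minus strand, 34969190-34972156 and 34956436-34959238, a single exon each) that encode the stress-inducible HSP70. Control tumors 1 to 4 had 3.40, 2.20, 2.76 and 3.75 normalized CPM of Hspa1a. Sunitinib-treated tumors 5, 6, 8 and 12 had 6.69, 88.5, 3.17 and 18.2, and R+S-treated tumors 4, 5, 7 and 10 had 6.80, 10.0, 7.94 and 4.58. Sunitinib-treated tumor 6 was thus 29.2-fold above the control mean while tumor 8 of the same group, at 1.05-fold, lay inside the control range, and the R+S-treated tumors all lay above every control tumor. For Hspa1b the control tumors had 4.24, 2.83, 4.11 and 4.34, the sunitinib-treated tumors 9.39, 94.98, 4.17 and 16.4, and the R+S-treated tumors 6.35, 12.7, 11.3 and 5.27. The same tumors were high and low for both genes.

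The fitted log2 fold change of Hspa1a between sunitinib and control was 3.27 (SE 0.85, adjusted p = 0.0514 over 16645 genes in the edgeR quasi-likelihood fit), and that of Hspa1b was 3.01 (SE 0.81, adjusted p = 0.0607). Neither passed the threshold of 0.05, and without sunitinib-treated tumor 6 the values were 1.62 and 1.36. The SD of log2 CPM of Hspa1a was 2.07 among sunitinib-treated, 0.47 among R+S-treated and 0.34 among control tumors. Between R+S and control the log2 fold changes were 1.27 (95% interval -0.28 to 2.83) and 1.198 (-0.30 to 2.69), although the groups did not overlap for either gene (exact permutation test, two-sided, p = 0.0286, the smallest that 4 tumors against 4 allow). Of all genes, 11.6% were likewise higher with R+S without overlap. In a fit of those 8 tumors alone, which estimates the spread without the sunitinib-treated tumors, Hspa1a and Hspa1b passed with adjusted p of 0.0185 and 0.0331. That fit called 2557 of 16184 genes. Of the 50-base words of the Hspa1a transcript, 58.8% also occur in Hspa1b, and reads that align to both were not counted, so both levels are too low by an unknown amount. Their raw counts were 83 to 159 and 107 to 198 per control tumor. Hspa1a took between 40.2% and 52.5% of the pair's counts in all 12 tumors.

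Hspa8 on chromosome 9 (plus strand, 40800984-40810087) encodes HSC70, the constitutive HSP70 of the cytosol, which the J domain of SV40 T antigen is known to bind. It had 432, 508, 475 and 477 normalized CPM in control tumors 1 to 4. Sunitinib-treated tumors 5, 6, 8 and 12 had 574, 584, 565 and 638, and R+S-treated tumors 4, 5, 7 and 10 had 520, 435, 445 and 426. All 4 sunitinib-treated tumors lay above both other groups, and the SD of 33.0 within the group was small beside its mean of 590. The log2 fold change was 0.32 against control (SE 0.11, adjusted p = 0.141), and R+S against sunitinib gave -0.37 (SE 0.11, adjusted p = 0.0608). Tumor 6, which led most other members, did not lead here: without it the values were 0.33 and -0.37. Of its 50-base words, 39.4% occur in other transcripts, chiefly of the processed copy Gm15459, and 3 small nucleolar RNAs (Snord14c, Snord14d and Snord14e) lie within it on the same strand.

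The helpers of HSP70 followed. Hsph1 (chromosome 5, minus strand, 149614287-149636376) encodes HSP105, a nucleotide exchange factor, and had 87.5, 81.2, 69.5 and 65.7 normalized CPM in control tumors 1 to 4. It had 113, 321, 91.1 and 180 in sunitinib-treated tumors 5, 6, 8 and 12, and 144, 121, 89.5 and 123 in R+S-treated tumors 4, 5, 7 and 10. Both treated groups lay wholly above the control tumors, R+S-treated tumor 7 by the least. The log2 fold change was 1.21 for sunitinib (SE 0.33, adjusted p = 0.0656, and 0.75 without tumor 6) and 0.65 for R+S (SE 0.33, adjusted p = 0.291). The difference between the treated groups was -0.56 (SE 0.33), and -0.10 without tumor 6. Hsph1 shared no 50-base word with another gene.

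Dnajb1 (chromosome 8, plus strand, 83608193-83612653), the J-domain protein HSP40, had 36.5, 50.3, 49.2 and 43.1 normalized CPM in control tumors. Sunitinib-treated tumors 5, 6, 8 and 12 had 55.9, 85.8, 51.1 and 82.3, and R+S-treated tumors 4, 5, 7 and 10 had 55.2, 53.9, 56.3 and 55.0. Tumors 6 and 12 stood well above the rest, whereas the R+S-treated tumors differed among themselves by only 1.04-fold and all lay above the control range. The log2 fold change against control was 0.62 for sunitinib (SE 0.17, adjusted p = 0.0732) and 0.30 for R+S (SE 0.17, adjusted p = 0.357).

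Bag3 (chromosome 7, plus strand, 128523616-128546981) encodes an exchange factor that links HSP70 to selective autophagy. Its control tumors had 20.2, 22.2, 17.6 and 17.6 normalized CPM, its sunitinib-treated tumors 5, 6, 8 and 12 had 19.5, 60.7, 22.4 and 30.7, and its R+S-treated tumors 4, 5, 7 and 10 had 25.5, 20.9, 21.8 and 21.6. Sunitinib-treated tumors 6, 8 and 12 and R+S-treated tumor 4 stood above the control range, tumor 8 by little, and the remaining treated tumors lay within it. The log2 fold change for sunitinib was 0.78 (SE 0.30, adjusted p = 0.173) and 0.32 without tumor 6, the member least separated from control in that fit (unadjusted p = 0.0764 by edgeR's quasi-likelihood test).

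Hspb1 (chromosome 5, plus strand, 135887919-135889563) encodes the small heat shock protein HSP25 and was scarce, with 39 to 73 reads per control tumor. Control tumors 1 to 4 had 1.37, 1.38, 1.85 and 1.10 normalized CPM, sunitinib-treated tumors 5, 6, 8 and 12 had 1.99, 9.53, 3.09 and 2.63, and R+S-treated tumors 4, 5, 7 and 10 had 2.77, 1.36, 1.22 and 1.56. All sunitinib-treated tumors lay above all control tumors, with tumor 6 at 6.70-fold of the control mean, and the R+S-treated tumors other than tumor 4 lay within the control range. The log2 fold change for sunitinib was 1.60 (SE 0.49, adjusted p = 0.0979), 0.85 without tumor 6, and that between R+S and sunitinib was -1.32 (SE 0.48, adjusted p = 0.0984), -0.57 without it. Of its 50-base words, 48.8% recur in the pseudogene Hsp25-ps1, so its level is uncertain.

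Hsp90ab1 (chromosome 17, minus strand, 45567775-45573271), the constitutive HSP90 beta, had 1440, 1336, 1335 and 1279 normalized CPM in control tumors. Sunitinib-treated tumors 5, 6, 8 and 12 had 1580, 2193, 1690 and 2290, and R+S-treated tumors 4, 5, 7 and 10 had 1641, 1469, 1410 and 1316. The sunitinib-treated tumors were all higher than the control tumors, numbers 6 and 12 by the most, while the R+S-treated tumors reached into both other groups. The log2 fold change was 0.52 for sunitinib (SE 0.15, adjusted p = 0.0851) and 0.11 for R+S (95% interval -0.18 to 0.41). Hsp90aa1 (chromosome 12, minus strand, 110690605-110702728), the more inducible HSP90 alpha, had 231, 244, 253 and 296 in control, 304, 426, 329 and 330 in sunitinib-treated and 298, 262, 265 and 313 in R+S-treated tumors, in the same order of tumors. The sunitinib-treated tumors again did not overlap the control tumors, and the gap from control tumor 4 to sunitinib-treated tumor 5 was narrow. Its log2 fold change was 0.44 for sunitinib (SE 0.13, adjusted p = 0.0957) and 0.15 for R+S (95% interval -0.11 to 0.41). Of the 50-base words of Hsp90aa1, 47.5% recur elsewhere, mostly in Gm12346, against 3.44% for Hsp90ab1.

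Hspe1 (chromosome 1, plus strand, 55088132-55091307) was the only member that passed the test. It had 39.0, 35.7, 32.5 and 27.6 normalized CPM in control tumors 1 to 4, 47.0, 67.3, 53.5 and 88.3 in sunitinib-treated tumors 5, 6, 8 and 12, and 34.5, 32.1, 28.8 and 25.7 in R+S-treated tumors 4, 5, 7 and 10. The sunitinib-treated tumors lay above all 8 others, tumor 12 by the most, and the R+S-treated tumors lay within or just below the control range. Hspe1 rose with sunitinib by 0.93 on the log2 scale (SE 0.19, adjusted p = 0.0175), a level of 64.02 ± 18.2 against 33.7 ± 4.86 (SD, n = 4 each). Against sunitinib, R+S gave -1.08 (SE 0.19, adjusted p = 0.0246), and against control -0.15 (95% interval -0.53 to 0.22). Without tumor 6 the values were 0.90 (adjusted p = 0.0273) and -1.05 (adjusted p = 0.0244). The rise lost the threshold without control tumor 3 or 4, and the difference between the treated groups without R+S-treated tumor 4, 5 or 7. The log2 fold changes lay between 0.73 and 1.06 and between -1.21 and -0.88 over all tumors left out in turn. Calls fell over all genes in these fits. Without control tumor 3 or 4, 440 and 474 genes were called against 745. Without R+S-treated tumor 4, 5 or 7, 1, 0 and 1 genes were called between the treated groups against 1200. Hspe1 also lost the threshold in both comparisons in fits of only the 8 tumors compared. Of the 50-base words of Hspe1, 22.8% recur in transcripts of other genes, chiefly AC117239.2 (17.9%).

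Hspd1, the partner whose product forms the chaperonin barrel that HSP10 closes, was no member but starts next to Hspe1 on the opposite strand, with the 4-unit element in the window of 1 of its 2 RefSeq starts. Its control tumors had 146, 161, 131 and 139 normalized CPM, its sunitinib-treated tumors 5, 6, 8 and 12 had 171, 237, 185 and 234, and its R+S-treated tumors 4, 5, 7 and 10 had 154, 137, 130 and 129. As for Hspe1, all sunitinib-treated tumors lay above all others. Hspd1 rose with sunitinib by 0.52 (SE 0.13, adjusted p = 0.0446) and was lower with R+S than with sunitinib, at -0.59 (SE 0.13, adjusted p = 0.0300). Without tumor 6 the value against control missed the threshold (0.45, adjusted p = 0.0745), and the one between the treated groups passed it (-0.51, adjusted p = 0.0352). The 2 genes overlap in the annotation, the libraries were strand-specific, and the strand setting of the counting is not given in the sources used here.

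Set side by side, the log2 fold changes of sunitinib against control were positive for all 10 members, with a median of 0.85, where 53.3% of all 16645 genes were positive and their median was 0.03. The groups did not overlap for 7 members, each higher with sunitinib (5.17% of all genes were higher and 5.76% lower without overlap, 10.9% in all). By the adjusted p, 1 member was called higher (1.93% of all genes were called higher and 2.55% lower, 4.48% in all), and adjusted p ran from 0.0175 to 0.173. All 10 had an unadjusted p under 0.05, as had 19.5% of all genes. Without tumor 6 the 10 values remained positive, with a median of 0.62 against -0.01 over all genes and 1 call. DESeq2 called 9 of the 10, all but Bag3, in the same tumors, where it called 1477 of all 16645 genes.

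Sunitinib-treated tumor 6 had the highest level of all 12 tumors for 7 members (Hspa1a, Hspa1b, Hsph1, Hspb1, Dnajb1, Hsp90aa1 and Bag3), and tumor 12 for the other 3 (Hspa8, Hsp90ab1 and Hspe1). The median member stood at 2.57-fold of its control mean in tumor 6, at 1.84-fold in tumor 12, at 1.32-fold in tumor 5 and at 1.196-fold in tumor 8. Each of these 4 tumors had all 10 members above their control means. Among R+S-treated tumors the median member lay between 1.08-fold and 1.27-fold, with 7 to 10 members above the control mean. Tumors 5, 6 and 8 share a label prefix, and their medians spanned the whole range of the group.

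**Figure D2:**
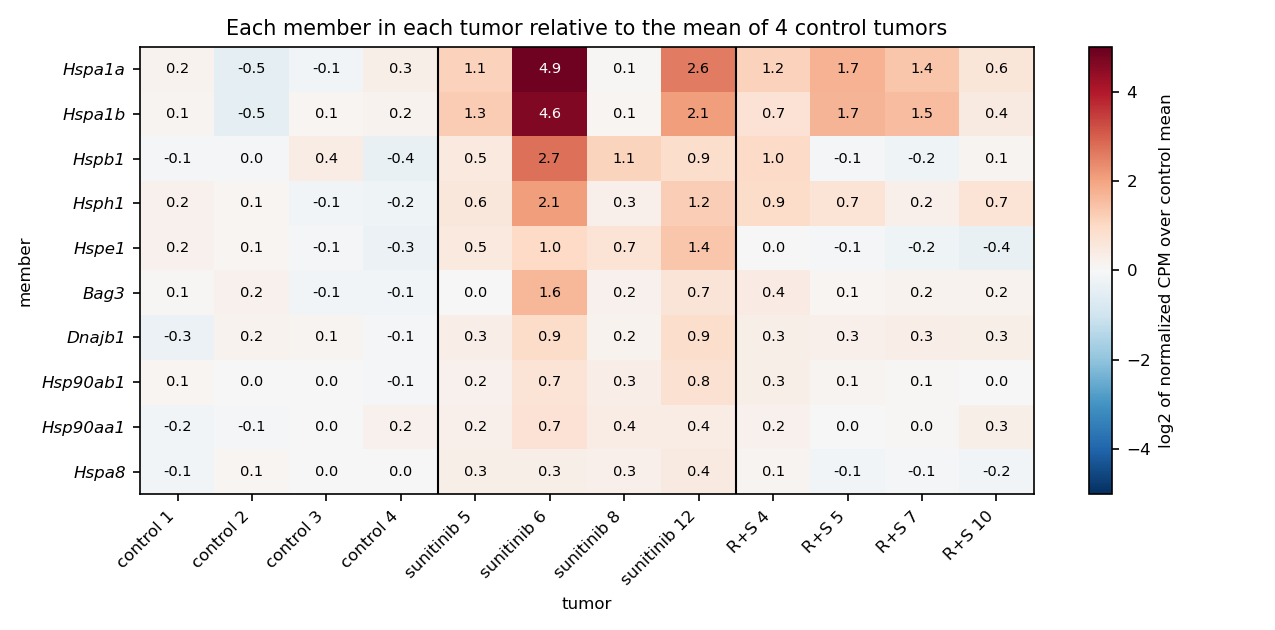
Each member (vertical axis, ordered by its fold change with sunitinib) in each of 12 tumors (horizontal axis), coloured and printed as log2 of its normalized CPM over the mean of the 4 control tumors. The reddest cells are Hspa1a and Hspa1b in sunitinib-treated tumor 6, which also had high Hspb1, Hsph1 and Bag3, and Hspe1 was reddest in tumor 12.

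Between R+S and control, 8 members had a positive and 2 a negative value (Hspa8 at -0.05 and Hspe1 at -0.15), with a median of 0.25 against 0.01 over all genes. None was called by edgeR (1.55% of all genes were called higher and 2.61% lower, 4.16% in all), with adjusted p from 0.291 to 0.839 and 0 of 10 at an unadjusted p under 0.05. DESeq2 called 0 members as well, and 1688 of all 16645 genes. The groups did not overlap for 4 members, all higher with R+S: Hspa1a, Hspa1b, Hsph1 and Dnajb1 (11.6% of all genes were higher and 11.9% lower without overlap, 23.5% in all). These comparisons share the control tumors with the comparison of sunitinib and control. With only the 8 tumors concerned in the fit, Hspa1a, Hspa1b and Hsph1 were called, the last at adjusted p = 0.0248, while 2557 of 16184 genes were called in that fit.

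Between R+S and sunitinib, all 10 members had a negative value, where 51.8% of all genes did, with a median of -0.56 against -0.02 over all genes. Hspe1 was the 1 member called (4.58% of all genes were called lower and 2.63% higher, 7.21% in all), and 6 of 10 had an unadjusted p under 0.05, as had 30.4% of all genes. The groups did not overlap for Hspa8 and Hspe1 (9.73% of all genes were lower and 8.9% higher without overlap, 18.6% in all). Without tumor 6 the 10 values stayed negative and their median was -0.27, with Hspa1b at -0.16, Hsph1 at -0.10 and Bag3 at -0.11. The median over all genes was then 0.03. In that fit Hspe1 was the 1 member called (5.89% of all 16822 genes were called lower and 4.17% higher, 10.1% in all). Hspe1 was then at -1.05 and Hspa8 at -0.37, close to their values in all 12 tumors. DESeq2 called 5 members (Hspa1a, Hspa8, Hspb1, Hsp90ab1 and Hspe1), and 3045 of all 16645 genes.

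**Figure D3:**
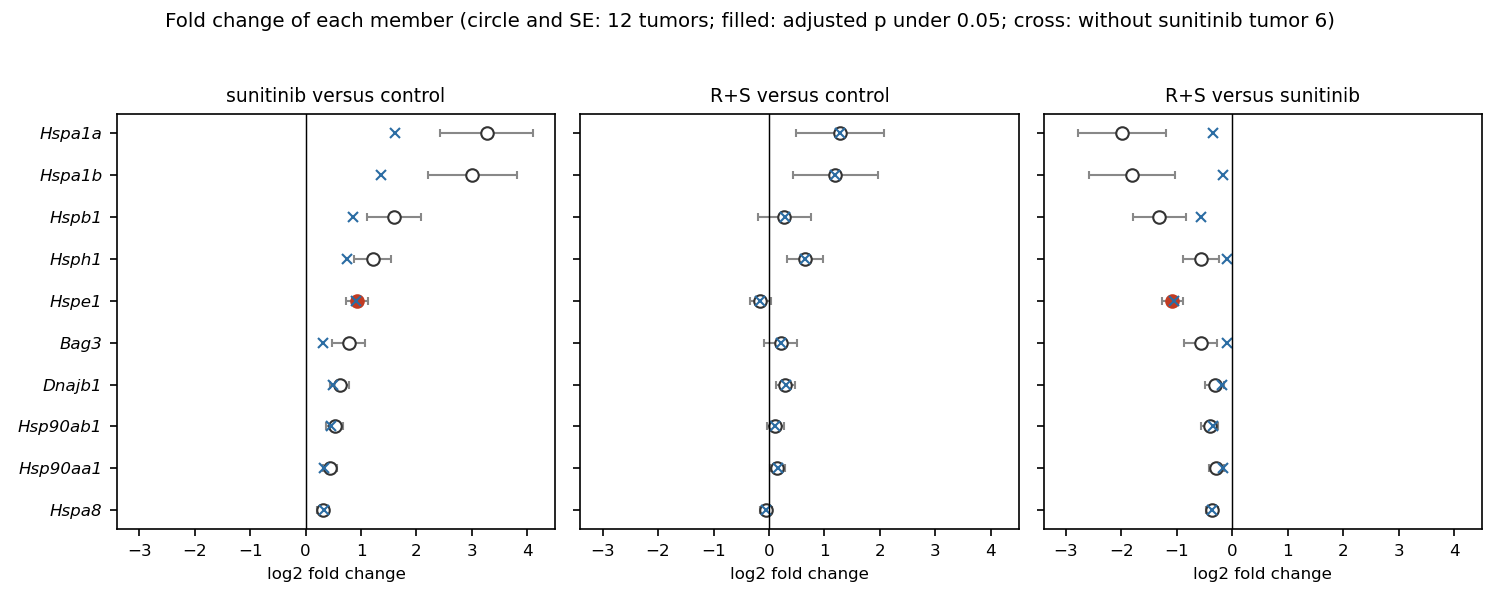
Log2 fold change (horizontal axis) of each member in 3 comparisons. Circles with bars are the value and its SE in the fit of 12 tumors, filled where the adjusted p was under 0.05, and crosses are the value without sunitinib-treated tumor 6. Hspe1 is filled in the outer panels, and the crosses leave the circles most for Hspa1a and Hspa1b.

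How alike the members' patterns were was described by the root mean square difference of their centred log2 CPM over the 12 tumors. The closest pair was Hspa8 and Hsp90ab1, with 0.16, and Hspa1a and Hspa1b had 0.22, whereas Hsph1 and Bag3 had 0.27. Hspa1a, Hspa1b and Hspb1 had the largest spread over the 12 tumors (SD of log2 CPM 1.46, 1.37 and 0.84). Among 10628 genes of at least 3 average log2 CPM, the pattern nearest to Hspa1a beside Hspa1b was that of Obsl1 (0.47), followed by C1ql3 (0.63), Zfhx2os (0.64) and Kcnh1 (0.65). For Hspa1b, Socs3 entered at 0.57 beside Obsl1, Kcnh1 and C1ql3. These genes share the peak in tumor 6: Socs3 had 77.5 normalized CPM there and 4.31 to 8.32 in control tumors. Nearest to Hspb1 were Tmem132a (0.35), Gm2a (0.35), Pld3 (0.38), Ctsl (0.39) and Bscl2 (0.40), and Ctsl, the lysosomal protease cathepsin L, had 447 in tumor 6 and 103 to 185 in control tumors. The points share libraries and depth, and these likenesses are descriptions over 12 tumors.

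**Figure D4:**
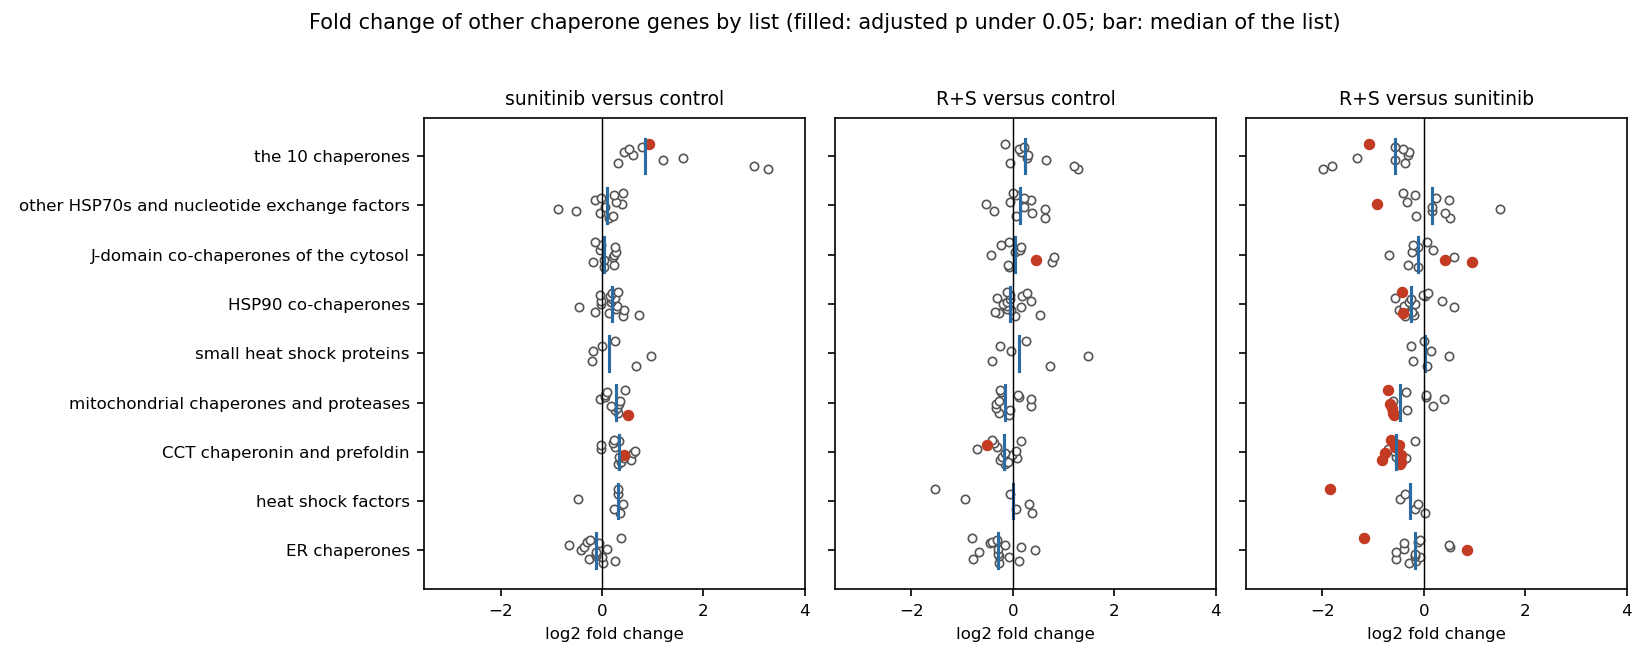
Log2 fold change (horizontal axis) of single genes in 8 other chaperone lists and of the 10 members (vertical axis) in 3 comparisons. Filled points had an adjusted p under 0.05 and the bar is the median of a list. Filled points are most frequent for CCT chaperonin and prefoldin and for mitochondrial chaperones between R+S and sunitinib, all to the left of 0.

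Of the factors that regulate the members, Hsf1 had 48.0 to 60.8 normalized CPM in control, 59.9 to 76.0 in sunitinib-treated and 66.3 to 73.8 in R+S-treated tumors. Its log2 fold change was 0.36 for sunitinib (SE 0.11, adjusted p = 0.0973) and 0.37 for R+S (SE 0.11, adjusted p = 0.0773), and among sunitinib-treated tumors it was lowest in tumor 6. None of 6 genes of heat shock factors and their binding proteins was called against control. Hsf2bp, an HSF2 binding protein present at 0.415 normalized CPM or less, was lower with R+S than with sunitinib (-1.86, SE 0.45, adjusted p = 0.0354). Without tumor 6 the calls changed: Hsf1 passed the test against control with sunitinib (0.41, adjusted p = 0.0454) and with R+S (0.37, adjusted p = 0.0376), and Hsf2bp no longer did (-1.64, adjusted p = 0.0521).

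Among 12 tested further HSP70s and nucleotide exchange factors, none was called against control. The medians were 0.10 for sunitinib and 0.14 for R+S. Hspa4, a relative of Hsph1 with the same exchange function, had 181 to 196 in control and 203 to 243 in sunitinib-treated tumors, a log2 fold change of 0.22 (SE 0.09, adjusted p = 0.211). Hspa4l, another relative, had 86.4 to 141 with sunitinib, 110 to 140 in control and 135 to 179 with R+S, and its log2 fold change between R+S and sunitinib was 0.42 (SE 0.16, adjusted p = 0.102). Hspbp1, an exchange factor that inhibits HSP70, was lower with R+S than with sunitinib by the test (-0.92, SE 0.22, adjusted p = 0.0343).

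Of 11 J-domain co-chaperones of the cytosol, 2 were called higher with R+S than with sunitinib and none lower, where 2.63% of all genes were called higher. Over the list 5 values were positive and 6 negative, with a median of -0.11. Dnajb1 was at -0.32 between the treated groups and was not called (adjusted p = 0.226 in the edgeR fit). Dnaja4 had 84.8 to 122 normalized CPM with R+S, 38.6 to 62.6 with sunitinib and 45.9 to 80.0 in control tumors (0.94 between the treated groups, SE 0.21, adjusted p = 0.0301). Dnajb2, a neuronal J-domain protein, had 36.3 to 40.1 with R+S and 24.6 to 30.1 in the other 8 tumors, and rose against control as well (0.46, SE 0.10, adjusted p = 0.0200). Without tumor 6, Dnaja4, Dnajb2 and Dnajb4 were called higher with R+S both against sunitinib and against control. In that fit 4.17% and 4.11% of all genes were called higher in these comparisons. Of 17 HSP90 co-chaperones, none was called against control, and Stip1, which carries clients from HSP70 to HSP90, and Cacybp were lower with R+S than with sunitinib (-0.42 each, adjusted p = 0.0445 and 0.0491). Without tumor 6 neither passed (adjusted p = 0.0580 and 0.0617), whereas Stub1, a ubiquitin ligase, was called lower with R+S than with sunitinib (-0.69, adjusted p = 0.0416) and Cdc37, which brings kinases to HSP90, lower with R+S than in control (-0.36, adjusted p = 0.0394). None of 6 tested small heat shock proteins was called in any comparison of the 12 tumors, and Hspb7 was called higher with R+S than in control without tumor 6 (1.47, adjusted p = 0.0418).

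The CCT chaperonin, which folds actin and tubulin, and prefoldin, which delivers them, made up the list with the most calls between the treated groups: 9 of 14 genes were lower with R+S than with sunitinib, none higher, with a median of -0.55, where 4.58% of all genes were called lower. Cct3 had 196, 291, 215 and 342 normalized CPM in sunitinib-treated tumors 5, 6, 8 and 12, and 160, 131, 147 and 149 in R+S-treated tumors 4, 5, 7 and 10, against 155 to 196 in control tumors. The treated groups did not overlap, the highest R+S-treated tumor being below the lowest sunitinib-treated one (-0.83, SE 0.17, adjusted p = 0.0272). Pfdn4, a prefoldin subunit, gave -0.60 (SE 0.12, adjusted p = 0.0277). Cct6a also rose between control and sunitinib (0.43, SE 0.09, adjusted p = 0.0172), and Vbp1, another prefoldin subunit, was the 1 gene of the list below control with R+S (-0.51, SE 0.10, adjusted p = 0.0191). Without tumor 6, 8 of the 14 were lower than with sunitinib, with a median of -0.51, and Pfdn4 joined Vbp1 below control (-0.38, adjusted p = 0.0482). Of 12 mitochondrial chaperones and proteases, 5 were lower with R+S than with sunitinib, none higher, with a median of -0.47 over the list. These were Hspd1, the mitochondrial HSP70 gene Hspa9, its exchange factor Grpel1, and the proteases Lonp1 and Htra2, the last at -0.70 (SE 0.12, adjusted p = 0.0233). Without tumor 6, 4 of the 12 were lower.

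Of 15 chaperones and stress genes of the endoplasmic reticulum, none was called against control by edgeR, and Hspa5, which encodes BiP, the HSP70 of that compartment, had 1328 to 1879 normalized CPM in control, 1094 to 1869 in sunitinib-treated and 1110 to 1628 in R+S-treated tumors, with log2 fold changes of 0.02 (SE 0.20) for sunitinib and -0.28 (SE 0.20) for R+S. Between the treated groups Dnajb9 was higher with R+S (0.85, SE 0.16, adjusted p = 0.0252) and Ddit3, a transcription factor of the unfolded protein response, lower (-1.18, SE 0.28, adjusted p = 0.0346).

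Immediate early genes, which answer a stimulus within minutes, and targets of the hypoxia factor HIF were examined beside the members. The summed level of 16 immediate early genes peaked at 750 normalized CPM in sunitinib-treated tumor 6 and ran from 234 to 409 elsewhere, and of the 14 tested only Atf3 rose with sunitinib (1.16, SE 0.27, adjusted p = 0.0311). Without tumor 6, Jund was called higher as well (0.94, adjusted p = 0.0397), and Jun lower with R+S than in control (-0.89, adjusted p = 0.0395). Of 15 HIF targets, 9 were higher with sunitinib than in control and 4 with R+S, and 6 were lower with R+S than with sunitinib (9, 6 and 4 without tumor 6). By adjusted p the leading gene was Slc16a3, a lactate transporter, with 12.9 to 78.4 normalized CPM with sunitinib, 6.29 to 15.1 with R+S and 2.99 to 4.16 in control tumors (3.82 for sunitinib, SE 0.48, adjusted p = 0.000554). Ak4, a mitochondrial adenylate kinase, had 4.56 to 47.9 normalized CPM with sunitinib, 2.57 to 7.40 with R+S and 0.556 to 0.873 in control tumors. Ankrd37 and Pdk1, a kinase that shuts off pyruvate dehydrogenase, rose by 2.34 (SE 0.38, adjusted p = 0.00369) and 1.52 (SE 0.25, adjusted p = 0.0042) on the log2 scale with sunitinib. Ldha, lactate dehydrogenase A, reached 340 normalized CPM in sunitinib-treated tumor 6, 25.5 to 66.9 in the other 3 tumors of the group and 12.7 to 18.5 in control tumors. Their part in the members' levels was not tested.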

How the data were processed

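The authors deposited 1 table per tumor of raw read counts per Ensembl gene, without normalization, made by htseq-count from strand-specific poly(A) libraries. The submitters' processing notes name cutadapt 1.2.1, TopHat2 2.0.9, HTSeq 0.5.4p3 and GRCm38, and the annotation release is not given in the sources used here. Reads that align to several places (21203479 to 48418780 alignments per tumor) were not counted on genes, so genes with close copies are undercounted. The totals that htseq-count writes at the end of each table were left out: reads on no gene were 11.1% to 18.8% of the reads counted on a gene, on no gene or on several genes.

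Symbols, coordinates and exon lengths came from GENCODE mouse release M21 (37607 of 38924 identifiers matched), and promoter windows from RefSeq. Counts were scaled by TMM and tested with edgeR 4.0.16 (R 4.3.3): a quasi-likelihood F-test with robust estimation in 1 fit of 12 tumors and 3 groups, after filterByExpr (minimum count 10, minimum total 15), which kept 16645 genes and all 10 members. Benjamini-Hochberg adjustment ran over these genes in each of 3 comparisons, with a threshold of 0.05. The SE is the absolute log2 fold change divided by the square root of F, and intervals are normal 95% intervals. They do not allow for the small number of tumors and are narrower than the quasi-likelihood F-test implies. For Hsph1 between R+S and control the interval was 0.01 to 1.29, while that test gave an unadjusted p of 0.0702. Log2 CPM used a prior count of 2. Exact permutation tests used the 70 arrangements of 4 tumors against 4, two-sided. Nothing says which tumors came from separate mice, so p-values measure the spread between these tumors. No counting errors are given, and PCR copies among the reads were not marked.

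The members and the gene lists were chosen with earlier results of these data known. Named beside all 10 members were, of each pathway list, up to 4 genes that passed in any comparison, by smallest adjusted p, with Hspd1, Hspa4, Hspa4l, Hsf1 and Hspa5 regardless, and the 5 genes nearest in pattern to the 3 members of largest spread. Names beyond that rule (Hspa9, Ldha, Ins2, and Dnajb4, Stub1, Cdc37, Hspb7, Jun and Jund, called in the fit without tumor 6) were added after their values were seen. The fit was tested on simulated counts. Alternatives were DESeq2 1.42.0, library-size and upper-quartile scaling, no filter, at least 10 counts in every tumor, only the 8 tumors compared, treated tumors of 1 label prefix summed (control tumors stayed single), the Hspa1 pair summed, an absolute log2 fold change of at least 1, and leaving out 1 tumor at a time.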

Additional observations from a re-analysis of the deposited data

Results flagged for a closer look

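Of 30 groups of 4 tumors (10 members in 3 groups) tested on log2 CPM for a tumor far from the others, 1 was flagged, and chance flags about 1 in 20. Control tumor 2 had 2.83 normalized CPM of Hspa1b, while the other 3 control tumors had 4.11 to 4.34. The same tumor was lowest for Hspa1a. On the linear scale of normalized CPM the same test also marked sunitinib-treated tumor 6 as high for Hspa1b and Hspb1, with gaps to the next tumor of 0.865 and 0.855 of the group's range.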

How the results depend on the processing

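No paired analysis was possible because the groups compared share at most 1 replicate number. The number of members called moved with the test more than with the scaling. Between sunitinib and control it was 1 in the fit of 12 tumors, 9 with DESeq2, 0 with only the 8 tumors compared, 6 with treated tumors of 1 prefix summed (control tumors stayed single), and 0 when an absolute log2 fold change of at least 1 was asked. Between R+S and control it was 0, and became 3 with only the 8 tumors compared and 1 with prefixes summed. Between R+S and sunitinib it was 1, and became 2 with upper-quartile scaling, 2 with at least 10 counts in every tumor, 5 with DESeq2, 0 with only the 8 tumors compared and 3 with prefixes summed. Over all genes DESeq2 called 1477, 1688 and 3045 where edgeR called 745, 693 and 1200, and only 8 tumors gave 380, 2557 and 3. Summing prefixes left 2 sunitinib-treated and 3 R+S-treated units beside 4 control tumors, and 752, 671 and 1043 of 17127 genes were called. A sum hides the spread between the tumors in it, so that fit is not a stricter test. Leaving out 1 tumor at a time, 0 to 7 members were called between sunitinib and control (7 without sunitinib-treated tumor 5, 5 without tumor 8, 0 without control tumor 3 or 4). In the same order, these fits called 902 of 16894, 757 of 16886, 440 of 16871 and 474 of 16903 genes. The range of members called was 0 to 0 between R+S and control, and 0 to 4 between R+S and sunitinib (4 without sunitinib-treated tumor 5, 0 without R+S-treated tumor 4, 5 or 7). In that last comparison 2861 genes in all were called without sunitinib-treated tumor 5. Only 1, 0 and 1 were called without R+S-treated tumor 4, 5 and 7. Over all members, 3 comparisons and the 8 settings other than the fold change minimum, which bears only on counts of calls, 213 of 240 log2 fold changes kept their direction and side of the threshold, 25 gained the call, 2 lost it and 0 changed sign. With a tumor left out, 341 of 360 kept both, 13 gained the call, 5 lost it and 1 changed sign: Hspb1 between R+S and control went from 0.28 to -0.041 without R+S-treated tumor 4, in a range of -0.041 to 0.43. The cause was not tested. Depth limits Hspa1a, Hspa1b and Hspb1 most, with 39 to 198 reads per control tumor.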
